A study of Mus musculus with 6 samples.

Results

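The TNF receptor superfamily of regulatory T cells (Treg) was examined through the transcripts of 9 receptors, Tnfrsf1a, Tnfrsf1b, Tnfrsf4, Tnfrsf9, Tnfrsf14, Tnfrsf18, Tnfrsf25, Cd27 and Fas, which were picked by gene name from the 29199 genes of the count table. All 9 passed the filter on low counts and were among the 18321 genes tested. Treg were sorted from the spleen of lethally irradiated C57BL/6J (B6) or CD45.1+ B6 hosts. This was 3 weeks after a graft of B6 and B6D2F1 bone marrow given as a 1:1 mixture. Every host also received ex vivo expanded wild-type (WT) Treg from B6 Foxp3-Thy1.1 mice, in which Thy1.1 is driven by Foxp3, together with naive conventional CD4+ T cells (Tconv). The groups differed in those Tconv: 3 libraries were Treg with WT Tconv (from Hp1a +/+ mice) and 3 were Treg with HP1α KO Tconv (from Hp1a -/- littermates). HP1α is a protein that binds heterochromatin. The Hp1a deletion was made in the germline with CMV-cre on a mixed 129/Sv and C57BL/6 background, donors were 6 to 12 weeks old, and Treg carried intact Hp1a in both groups. Before transfer, all Treg had been cultured with IL-2, TGF-β1 and beads coated with anti-CD3 and anti-CD28, and the sort kept CD4+ cells that carried Thy1.1, CD45.2 and H-2Kb and lacked CD45.1 and H-2Kd. How many animals stand behind a library was not given in the sources used here, so p-values measure the spread between these samples, which may be technical.

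TNF receptors are trimeric surface proteins that bind ligands of the TNF family. Some carry a death domain in their cytoplasmic tail and signal through adaptors such as TRADD or FADD, whereas the others recruit TRAF proteins, ubiquitin ligases that lead to NF-kB. In Treg, TNFR2, OX40, GITR, 4-1BB and DR3 are known as costimulatory receptors that act on the expansion, survival and suppressive function of these cells. The question addressed here is whether Treg that had shared a host with HP1α KO Tconv carried these receptor transcripts at other levels than Treg that had shared a host with WT Tconv. Transcripts and not surface proteins were measured, and in bulk samples fewer cells of a type and less RNA per cell cannot be told apart.

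The libraries held 87421755 to 119078882 counts, and 22573 to 24626 genes were detected in each. The Treg markers Foxp3, Il2ra, Ctla4 and Ikzf2 summed to 3065 to 3564 CPM (the count scaled to a library total of 1000000) with WT Tconv and to 2744 to 3201 CPM with HP1α KO Tconv, and the CD4 T cell markers Cd4, Cd3e, Cd5 and Cd28 to 1766 to 2013 CPM. Ctla4, which encodes an inhibitory receptor of Treg, stood at 1246, 1349 and 1112 CPM with WT Tconv and at 1028, 1018 and 798 CPM with HP1α KO Tconv, without overlap (log2 fold change -0.38, adjusted p = 0.232 by edgeR and 0.0414 by DESeq2), and the groups also did not overlap for Cd28 (-0.25, edgeR adjusted p = 0.236) and Cd5 (0.20, edgeR adjusted p = 0.316). The groups overlapped for Foxp3, Il2ra and Ikzf2, with log2 fold changes of 0.005, -0.04 and -0.16, and for Cd4 and Cd3e (-0.01 and -0.15). Of all genes tested, 11.5% were higher and 11.6% lower with HP1α KO Tconv without overlap. The part of Ctla4, Cd28 and Cd5 in the receptor values was not tested. Replicate 3 of Treg with WT Tconv stood apart. Its 5 red cell markers summed to 5341 CPM against 365 to 677.8 CPM in the other 5 libraries, and its 8 neutrophil markers to 1820 CPM against 41.04 to 225.8 CPM. The 7 macrophage or monocyte markers summed to 461.4 CPM there against 320 to 375.9 CPM elsewhere. Most of that sum was Ccr2, which T cells can also express, and the TMM-scaled level of Lyz2 was 167.8 CPM there against 7.36 to 38.6 CPM elsewhere. The B cell markers summed to 25.62 to 36.19 CPM over the 6 libraries. No marker of these lists was at 0 in all libraries.

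Of the 9 receptor genes, 6 lie on mouse chromosome 4 (GRCm39). Tnfrsf4 (chr4:156098293-156101069) and Tnfrsf18 (chr4:156110621-156113352) are neighbours on the plus strand with 9551 bases between them. Tnfrsf9 (chr4:150999019-151030559, plus), Tnfrsf25 (chr4:152200391-152205299, plus), Tnfrsf14 (chr4:155005126-155013020, minus) and Tnfrsf1b (chr4:144938938-144973477, minus) lie farther apart on that chromosome. Cd27 (chr6:125209585-125213988, minus) and Tnfrsf1a (chr6:125325566-125339632, plus) share chromosome 6, and Fas (chr19:34268001-34305173, plus) is on chromosome 19. The promoter windows of 4 receptors are shown because Tnfrsf25 differed most between the groups, Tnfrsf4 and Tnfrsf18 were the most abundant receptors and are neighbours, and Tnfrsf9 varied most closely with Tnfrsf4. They were read from the GRCm39 genome, run 5′ to 3′ on the strand of the gene and span 250 bases before to 50 bases after the annotated start site, at chr4:152200141-152200440 for Tnfrsf25, chr4:151012206-151012505 for Tnfrsf9, chr4:156098043-156098342 for Tnfrsf4 and chr4:156110371-156110670 for Tnfrsf18. Capitals mark matches to an NF-kB consensus, to the AP-1 motif TGANTCA or to the NFAT core GGAAAA, searched on both strands.
Tnfrsf25: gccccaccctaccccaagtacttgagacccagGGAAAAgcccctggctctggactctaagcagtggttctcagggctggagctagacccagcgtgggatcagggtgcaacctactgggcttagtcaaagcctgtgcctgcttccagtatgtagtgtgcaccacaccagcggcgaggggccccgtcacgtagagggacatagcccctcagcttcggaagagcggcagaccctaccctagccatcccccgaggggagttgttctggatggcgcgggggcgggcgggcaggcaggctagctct
Tnfrsf9: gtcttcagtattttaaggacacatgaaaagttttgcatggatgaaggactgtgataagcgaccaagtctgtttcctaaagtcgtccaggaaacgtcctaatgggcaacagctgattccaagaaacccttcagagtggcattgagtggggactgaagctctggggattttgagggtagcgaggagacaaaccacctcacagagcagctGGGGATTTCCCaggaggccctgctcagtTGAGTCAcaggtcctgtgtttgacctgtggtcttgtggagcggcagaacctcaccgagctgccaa
Tnfrsf4: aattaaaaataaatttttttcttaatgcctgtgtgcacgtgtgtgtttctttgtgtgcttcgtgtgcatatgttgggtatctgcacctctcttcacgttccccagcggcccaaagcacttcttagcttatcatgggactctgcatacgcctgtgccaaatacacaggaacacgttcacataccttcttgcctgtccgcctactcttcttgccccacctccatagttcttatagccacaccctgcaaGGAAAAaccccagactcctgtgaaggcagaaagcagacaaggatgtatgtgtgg
Tnfrsf18: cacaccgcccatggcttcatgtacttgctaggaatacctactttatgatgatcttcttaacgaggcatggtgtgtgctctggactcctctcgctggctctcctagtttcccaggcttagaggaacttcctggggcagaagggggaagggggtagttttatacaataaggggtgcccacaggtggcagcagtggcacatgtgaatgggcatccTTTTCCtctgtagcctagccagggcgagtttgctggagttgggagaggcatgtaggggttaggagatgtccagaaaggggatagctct

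In these windows the NF-kB consensus was found for 1 of the 9 receptors, Tnfrsf9, where 2 overlapping matches began 43 and 42 bases before the start site, and it was found in 4.87% of 21757 promoters of protein-coding genes. The AP-1 motif was found for 2 of 9, 15 bases before the start site of Tnfrsf9 and 211 before that of Fas, against 7.15% of all promoters. The NFAT core was found for 6 of 9 (Tnfrsf4, Tnfrsf14, Tnfrsf18, Tnfrsf25, Cd27 and Fas), against 24.6% of all promoters. A match is a description of the letters and not a bound site. The Tnfrsf25 window held 63.3% G and C and 12 CpG, and those of Tnfrsf9, Tnfrsf4 and Tnfrsf18 held 51%, 47% and 53% with 6, 7 and 4 CpG, beside medians of 54.3% and 11 CpG over all promoters.

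Levels were compared between receptors as CPM per kilobase of exon, since a longer transcript yields more reads. Tnfrsf4, which encodes OX40, and Tnfrsf18, which encodes GITR, were the most abundant, at a mean over the 6 libraries of 343.6 (range 282.4 to 414.3) and 290.9 (257.1 to 379.4) CPM per kilobase. They exceeded 99.6% and 99.4% of 13068 tested protein-coding genes, and Tnfrsf4 lay above Tnfrsf18 in 6 of 6 libraries although their ranges overlapped. Tnfrsf1b (TNFR2) followed at 141.9 (131 to 153.4), Tnfrsf9 (4-1BB) at 131.2 (102.3 to 154.5) and Cd27, the receptor of CD70, at 118.6 (103.5 to 131) CPM per kilobase. The range of Tnfrsf9 overlapped those of Tnfrsf1b and Cd27, and all 3 lay below every value of Tnfrsf18. Tnfrsf14 (HVEM) at 20.62, Fas at 20.42 and Tnfrsf25 (DR3) at 17.38 CPM per kilobase formed a lower tier with overlapping ranges, below every value of Cd27. Tnfrsf1a (TNFR1) was the least abundant at 5.018 (4.1 to 5.712) CPM per kilobase, below every value of Tnfrsf25 and above 56% of protein-coding genes. Exon lengths came from a later annotation than the one the authors counted with, and with the longest transcript as the length 5 of the 9 ranks changed.

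**Figure D1:**
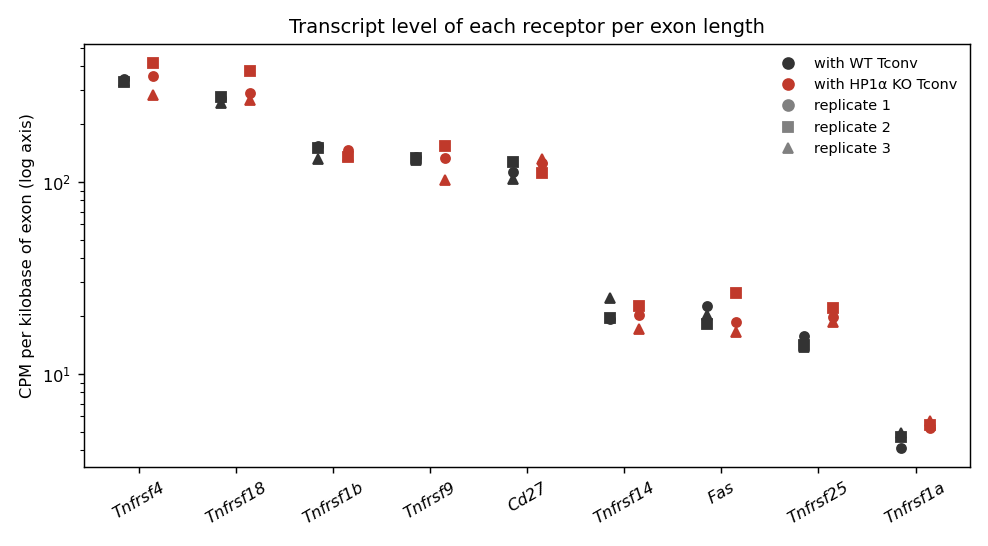
Transcript level of each receptor in Treg, in CPM per kilobase of exon on a log axis, with 1 point for each of the 6 libraries (colour for the Tconv genotype, shape for the replicate). Tnfrsf4 and Tnfrsf18 lie above 250 in all libraries, 3 receptors lie between 100 and 155, 3 between 13 and 27, and Tnfrsf1a lies below 6.

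Between the groups, Tnfrsf25 and Tnfrsf1a were higher in all 3 libraries of Treg with HP1α KO Tconv than in all 3 libraries of Treg with WT Tconv. For the other 7 receptors the groups overlapped, and the estimates ran from -0.09 to 0.21 on the log2 scale. By edgeR's quasi-likelihood test, 0 of the 9 receptors passed an adjusted p of 0.05, as did 0 of the 18321 genes (0%) and 0 by limma-voom. At an unadjusted p under 0.05, 2 of 9 were higher with HP1α KO Tconv, beside 6.98% of all genes, and 0 of 9 were lower, beside 7.52%. Groups that did not overlap were found for 2 of 9 receptors in the higher direction (11.5% of all genes) and for 0 of 9 in the lower direction (11.6%). DESeq2, at an adjusted p under 0.05 and with no fold threshold, called 1 of 9 higher (1.31% of the 12097 genes it gave an adjusted p) and 0 of 9 lower (3.03%). With the further threshold that the authors set, an absolute log2 fold change over 1, it called 0 of 9. The median log2 fold change, HP1α KO Tconv over WT Tconv, was 0.06 for the 9 receptors and -0.01 for all genes.

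**Figure D2:**
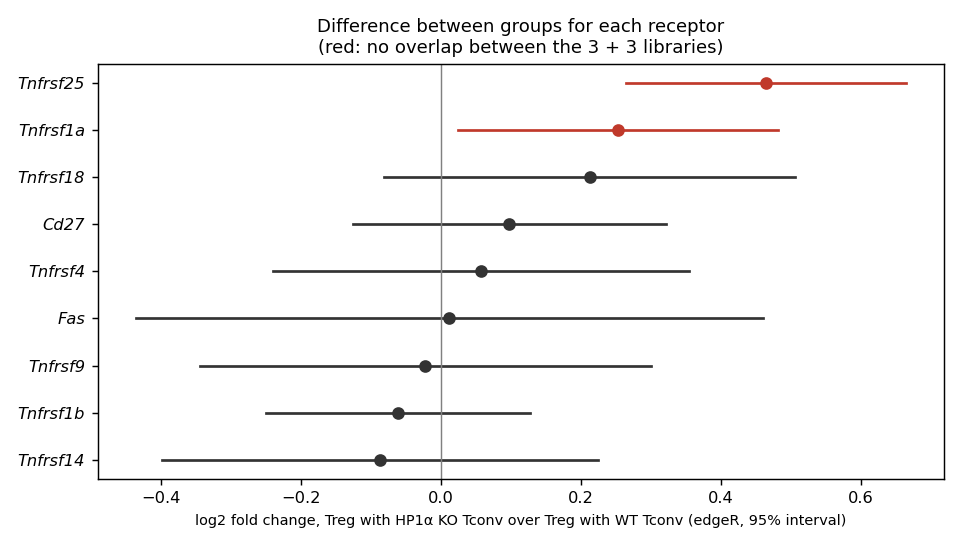
Log2 fold change of each receptor in Treg, HP1α KO Tconv over WT Tconv, from edgeR with its 95% interval (3 libraries per group). The intervals of Tnfrsf25 (0.26 to 0.66) and Tnfrsf1a (0.02 to 0.48), drawn in red as the receptors without overlap between groups, lie above 0, and the other 7 include 0.

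Tnfrsf25 encodes DR3, the receptor of the cytokine TL1A. It stood at 47.3, 42.6 and 41.6 CPM in replicates 1, 2 and 3 of Treg with WT Tconv and at 59.3, 66.1 and 55.9 CPM in Treg with HP1α KO Tconv. The lowest library with HP1α KO Tconv thus lay above the highest with WT Tconv. Means were 43.8 ± 3.04 and 60.4 ± 5.19 CPM (SD, n = 3), which is 1.38 fold (95% interval 1.2 to 1.58). On the log2 scale the difference was 0.46 (standard error 0.087), with an unadjusted p of 0.000637 and an adjusted p of 0.209 by edgeR. DESeq2 gave an adjusted p of 0.0025. Adjusted p-values ranged from 0.000726 to 0.437 over 22 alternatives, and were under 0.05 in 7 of 7 DESeq2 fits and in 1 edgeR fit, without a filter on low counts. The receptor rested on 4113 to 6606 counts per library, and 17.1% of its exonic bases lie opposite exons of Espn, an antisense neighbour with 565 to 688 counts. An exact permutation test gives a p of 0.1, the smallest that 3 libraries against 3 allow.

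Tnfrsf1a encodes TNFR1, the broadly expressed TNF receptor that can signal through TRADD. It stood at 12.9, 14.8 and 15.6 CPM with WT Tconv and at 16.5, 17.1 and 18.0 CPM with HP1α KO Tconv. The gap between the groups was narrow, from the highest library with WT Tconv to the lowest with HP1α KO Tconv. Means were 14.4 ± 1.37 and 17.2 ± 0.764 CPM (SD, n = 3), 0.25 apart on the log2 scale (95% interval 0.02 to 0.48) with an edgeR adjusted p of 0.304 and a DESeq2 adjusted p of 0.236. Its unadjusted edgeR p was 0.0341. This p was no longer under 0.05 without replicate 1 or 2 with WT Tconv or replicate 3 with HP1α KO Tconv (0.103, 0.0516 and 0.0971). It stayed under 0.05 without replicate 1 or 2 with HP1α KO Tconv (0.0413 and 0.0495). Without replicate 3 with WT Tconv, the library rich in red cell and neutrophil markers, the log2 fold change was 0.31 and this p 0.0182. The part of those cells in Tnfrsf1a was not tested. Tnfrsf1b, the other receptor of TNF, which is characteristic of Treg, stood at 759.3, 743.6 and 648.6 CPM with WT Tconv and at 720.7, 668.1 and 673.3 CPM with HP1α KO Tconv. These ranges overlapped, with a log2 fold change of -0.06 (95% interval -0.25 to 0.13, edgeR adjusted p = 0.764). Per kilobase, Tnfrsf1b exceeded Tnfrsf1a by 37.4, 32 and 26.5 times with WT Tconv and by 27.9, 24.9 and 23.8 times with HP1α KO Tconv. The ratio was thus lowest in 2 libraries with HP1α KO Tconv, and the groups overlapped.

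Fas, the death receptor bound by FasL, differed more within than between the groups. It stood at 52.3, 42.2 and 47.1 CPM with WT Tconv and at 43.1, 61.4 and 38.2 CPM with HP1α KO Tconv. Its highest and its lowest library were both in the group with HP1α KO Tconv, and the log2 fold change was 0.01 (95% interval -0.44 to 0.46, edgeR adjusted p = 0.983). The sign of this estimate turned in 6 of 22 alternatives.

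**Figure D3:**
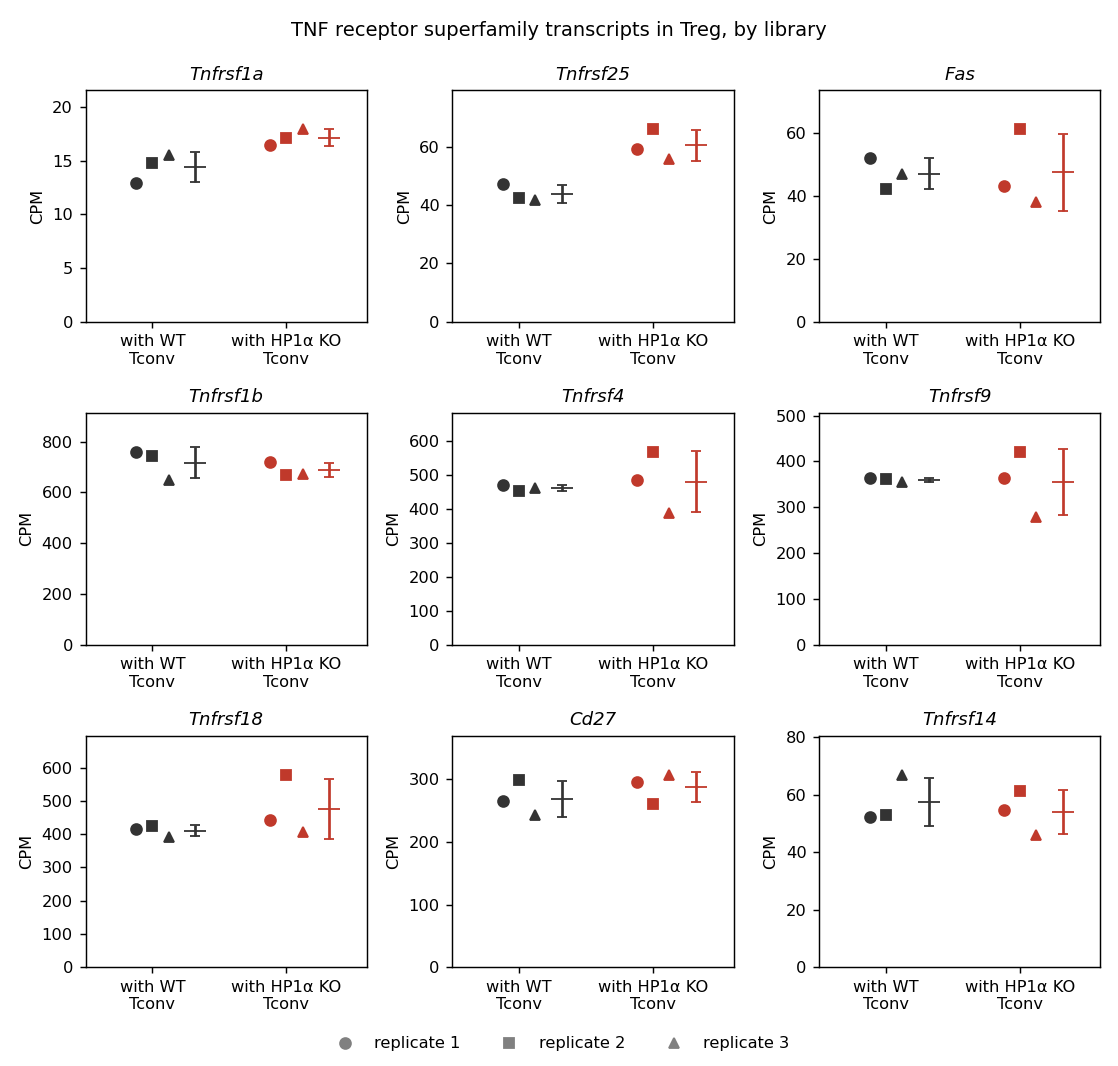
CPM of each of the 9 receptors in each library, with an axis from 0, Treg with WT Tconv in black and Treg with HP1α KO Tconv in red, shapes for replicates 1, 2 and 3, and the mean ± SD beside the points. Only in the panels of Tnfrsf25 and Tnfrsf1a do the 3 red points lie above the 3 black ones.

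OX40 and 4-1BB are TRAF-binding receptors that T cells induce on activation, and GITR is a Treg receptor of the same type. Tnfrsf4 stood at 470.8, 454.1 and 461.4 CPM with WT Tconv and at 486.3, 568.4 and 387.5 CPM with HP1α KO Tconv. Tnfrsf9 stood at 364.4, 360.3 and 355.0 CPM with WT Tconv and at 364.2, 420.7 and 278.3 CPM with HP1α KO Tconv. Both were tightly grouped with WT Tconv, at 462 ± 8.40 and 359.9 ± 4.72 CPM (SD, n = 3). They spread widely with HP1α KO Tconv, at 481 ± 90.6 and 354 ± 71.7 CPM, with replicate 2 highest and replicate 3 lowest. This spread was not particular to them. The SDs of Tnf and Ltb were 2.92 and 18.0 CPM with WT Tconv and 18.5 and 96.5 CPM with HP1α KO Tconv. That of Tnfrsf1b went the other way, at 59.9 and 29.0 CPM. Tnfrsf18 stood at 416.7, 423.6 and 391.9 CPM with WT Tconv and at 441.4, 578.2 and 407.8 CPM with HP1α KO Tconv. Replicate 2 with HP1α KO Tconv was again the highest library, and replicate 3 of that group fell inside the range of Treg with WT Tconv. Log2 fold changes were 0.06 (95% interval -0.24 to 0.35) for Tnfrsf4, -0.02 (-0.34 to 0.30) for Tnfrsf9 and 0.21 (-0.08 to 0.51) for Tnfrsf18, with edgeR adjusted p-values of 0.864, 0.956 and 0.49. Leaving out replicate 2 with HP1α KO Tconv put Tnfrsf4 at -0.08 and Tnfrsf18 at 0.05, and leaving out replicate 3 of that group put Tnfrsf9 at 0.13 and Tnfrsf18 at 0.31, with an unadjusted edgeR p of 0.0308 for Tnfrsf18. Of the exonic bases of Tnfrsf18, 35.9% lie opposite the antisense RNA Gm16008, which held 341 to 433 counts. In the same libraries Foxp3 stood at 200.1, 221.8 and 209.2 CPM with WT Tconv and at 227.9, 153.6 and 251.7 CPM with HP1α KO Tconv, so that the library with the most OX40, 4-1BB and GITR transcript had the least Foxp3. The other Treg markers did not all follow Foxp3 over replicates 1, 2 and 3 with HP1α KO Tconv. Il2ra was also lowest in replicate 2, at 178.6, 120.6 and 198.7 CPM. Ikzf2 ran the other way within that group, at 1611.5, 1822.4 and 1469 CPM, and Ctla4 was lowest in replicate 3, at 1028, 1018 and 798 CPM. The part of Foxp3 or of the other Treg markers in these receptor levels was not tested.

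CD27 and HVEM complete the receptors examined. Cd27 stood at 264.6, 298.1 and 242.4 CPM with WT Tconv and at 294.7, 260.0 and 306.9 CPM with HP1α KO Tconv. The groups overlapped, with a log2 fold change of 0.10 (95% interval -0.13 to 0.32, edgeR adjusted p = 0.677). Tnfrsf14, which encodes HVEM, the receptor of LIGHT and the partner of BTLA and CD160, stood at 52.4, 53.0 and 67.0 CPM with WT Tconv and at 54.9, 61.4 and 46.1 CPM with HP1α KO Tconv. Its highest value was in the library with WT Tconv that held 5341 CPM of red cell and 1820 CPM of neutrophil markers, whose part in it was not tested. The log2 fold change was -0.09 (95% interval -0.40 to 0.22, edgeR adjusted p = 0.798) with all libraries and 0.04 by edgeR without that library.

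Across the 6 libraries the receptors fell into patterns that cut across the groups. Replicate 2 with HP1α KO Tconv was the highest library for 5 of the 9 receptors. Replicate 3 of that group was the lowest library for 4 receptors and the highest for 2, Tnfrsf1a and Cd27. Replicate 3 of Treg with WT Tconv was the lowest for 4 others, Tnfrsf1b, Tnfrsf18, Tnfrsf25 and Cd27, and the highest for 1, Tnfrsf14. As a description over 6 points that share library and depth, the Pearson r of log2 CPM was 0.96 for Tnfrsf4 and Tnfrsf9, the single pair of 36 over 0.9. It was 0.87 for Tnfrsf4 and Fas, 0.83 for Tnfrsf9 and Fas, and 0.81 for Tnfrsf4 and its chromosomal neighbour Tnfrsf18. Cd27 had a negative r to each of these, at -0.71 to Fas, -0.55 to Tnfrsf9, -0.52 to Tnfrsf4 and -0.15 to Tnfrsf18. Its r to Tnfrsf14 was -0.85. Without replicate 3 of Treg with WT Tconv, these values were -0.97 to Fas, -0.76 to Tnfrsf9, -0.78 to Tnfrsf4 and -0.65 to Tnfrsf18. The r of Cd27 to Tnfrsf14 was then -0.70. Both TNF receptors ran against each other, with an r of -0.71 between Tnfrsf1a and Tnfrsf1b. Tnfrsf14 joined Tnfrsf4 and Tnfrsf9 more closely when replicate 3 of Treg with WT Tconv was left out, with r moving from 0.65 to 0.99 and from 0.68 to 0.97.

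**Figure D4:**
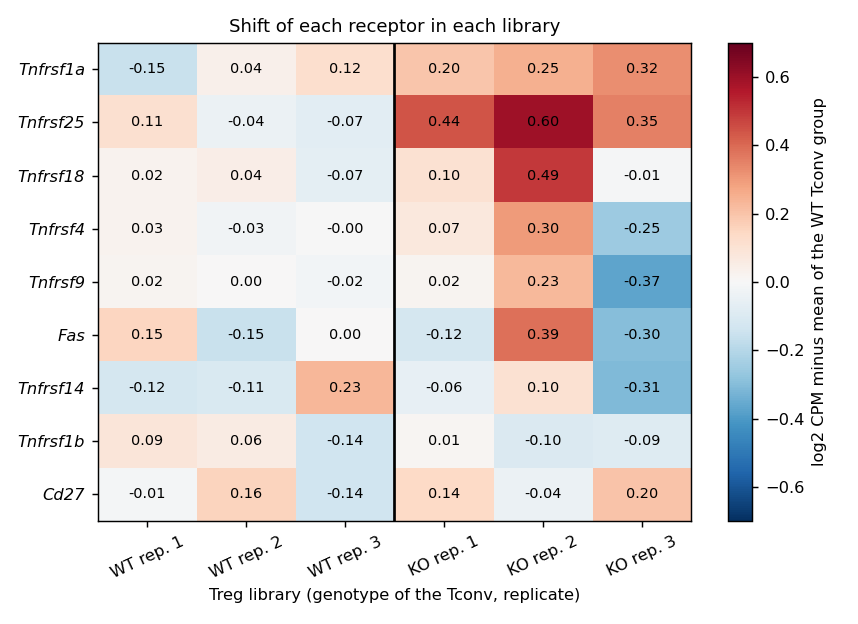
Log2 CPM of each receptor in each library minus the mean of Treg with WT Tconv (blue lower, red higher, 3 libraries per group, left of the line with WT Tconv and right of it with HP1α KO Tconv). Tnfrsf25 is shifted by 0.44, 0.60 and 0.35 in the libraries with HP1α KO Tconv, while Tnfrsf4, Tnfrsf9 and Fas are shifted up in replicate 2 and down in replicate 3.

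Among 8839 genes with a mean of at least 10 CPM, those most alike to Tnfrsf25 over the 6 libraries were Ccdc71, Dguok and Nubp1, with a Pearson r of 0.994, 0.993 and 0.992, and 96 genes had an r over 0.95. Those most alike to Tnfrsf1a were Faap24, C1qtnf6 and Nbr1 (0.992, 0.990 and 0.988), with 23 genes over 0.95. Those most alike to Tnfrsf18 were Mydgf, Gfer and Akt1 (0.997, 0.996 and 0.995), with 89 genes over 0.95. With 6 libraries many genes reach such values, and they are given as a description.

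The ligands of these receptors were measured in the same Treg. Tnfsf14, which encodes LIGHT, the ligand of HVEM, stood at 13.2, 12.9 and 13.1 CPM with WT Tconv and at 16.7, 19.4 and 20.4 CPM with HP1α KO Tconv. The groups did not overlap, and the log2 fold change was 0.53 (95% interval 0.30 to 0.75) with an adjusted p of 0.209 by edgeR and 0.00194 by DESeq2. Cd160, a further partner of HVEM on lymphocytes, had a log2 fold change of 0.41 with overlapping groups (edgeR adjusted p = 0.329). Tnfsf11, which encodes RANKL, stood at 54.7, 48.2 and 47.9 CPM with WT Tconv and at 55.4, 69.2 and 60.7 CPM with HP1α KO Tconv (edgeR adjusted p = 0.246). Tnfsf8, the ligand of CD30, was at 152 ± 14.7 CPM with WT Tconv and 108 ± 26.8 CPM with HP1α KO Tconv (SD, n = 3, edgeR adjusted p = 0.323, DESeq2 adjusted p = 0.0505), again without overlap. Its receptor gene Tnfrsf8 was at 20.0 ± 2.13 and 23.7 ± 1.16 CPM (edgeR adjusted p = 0.312). Tnf and Ltb, which encode TNF and lymphotoxin β, were at 66.5 ± 2.92 against 75.2 ± 18.5 CPM and at 413 ± 18.0 against 469 ± 96.5 CPM, with overlapping groups (edgeR adjusted p = 0.658 and 0.579). Ligands of the other receptors were measured too. Tnfsf15, which encodes TL1A, the ligand of DR3, ranged over the 6 libraries from 2.18 to 4.81 CPM, Tnfsf4 (OX40L) from 2.11 to 6.09, Tnfsf9 (4-1BBL) from 5.30 to 6.13 with WT Tconv and from 4.65 to 5.02 with HP1α KO Tconv, without overlap (edgeR adjusted p = 0.444), and Cd70 from 0.453 to 1.58 CPM, and Fasl ranged from 15.3 to 17.9 CPM. Of 14 ligands tested, 2 were higher and 1 was lower at an unadjusted p under 0.05, with a median log2 fold change of 0.13, beside 6.98% and 7.52% of all genes. Groups did not overlap for 2 ligands in the higher and 2 in the lower direction (11.5% and 11.6% of all genes), and DESeq2 called Tnfsf14 alone. DESeq2 also called Tnfsf14 in each of the 6 fits without 1 library, and Tnfsf8 in the fit without replicate 2 of the group with HP1α KO Tconv.

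Signalling components downstream of the receptors gave values in both directions. Traf2, the adaptor shared by TNFR2, OX40, GITR and 4-1BB, stood at 87.4, 76.8 and 81.2 CPM with WT Tconv and at 101.6, 116.4 and 99.6 CPM with HP1α KO Tconv, without overlap (log2 fold change 0.37, adjusted p = 0.209 by edgeR and 0.0185 by DESeq2). Map3k14, which encodes NIK, the kinase of the alternative NF-kB pathway that TRAF2 keeps low, stood at 36.3, 39.1 and 34.9 CPM with WT Tconv and at 47.8, 45.1 and 53.2 CPM with HP1α KO Tconv (0.40, adjusted p = 0.209 by edgeR and 0.00993 by DESeq2). Tradd, the adaptor that binds the death domain of TNFR1 and DR3, was at 22.8 ± 0.528 and 26.9 ± 0.268 CPM (SD, n = 3, log2 fold change 0.24, edgeR adjusted p = 0.221, DESeq2 adjusted p = 0.13). These 3 genes were higher in every library with HP1α KO Tconv than in any with WT Tconv, as were 11.5% of all genes. Of 12 TRAF adaptors and ubiquitin ligases tested 2 were higher and 1 was lower without overlap, and of 10 death domain adaptors and caspase branch genes 4 were higher and 2 were lower (11.5% and 11.6% of all genes). The DESeq2 calls of Traf2 and Map3k14 each held in 5 of 7 DESeq2 fits, of which 6 left out 1 library. Rbck1, which encodes a subunit of the linear ubiquitin ligase, and Bid, which links death receptors to mitochondria, were likewise higher without overlap, with log2 fold changes of 0.22 and 0.31 (edgeR adjusted p = 0.231 and 0.229).

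Rel, which encodes the NF-kB subunit c-Rel, needed for Treg development, had the smallest p-value of the pathway. It stood at 164.9, 159.3 and 160.4 CPM with WT Tconv and at 112.2, 83.5 and 84.9 CPM with HP1α KO Tconv, far apart relative to the spread within the groups. The log2 fold change was -0.79 (95% interval -1.05 to -0.52), with an adjusted p of 0.209 by edgeR and 7.66e-07 by DESeq2. Of the 10 NF-kB subunits and inhibitors tested, 8 had an estimate below 0 (51.5% of all genes) and the median was -0.18 (-0.01 over all genes), but Rel was the single one with an unadjusted p under 0.05 (7.52% of all genes in that direction). Nfkb2 and Relb, subunits of the alternative pathway, had log2 fold changes of -0.21 and -0.04 with overlapping groups (edgeR adjusted p = 0.64 and 0.931).

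Among the deubiquitinases and other brakes on NF-kB, 6 of 6 tested genes had an estimate below 0, with a median of -0.25, and 2 of 6 were lower at an unadjusted p under 0.05. Of all genes tested, 51.5% had an estimate below 0 and 7.52% were lower at that p. Tnfaip3, which encodes A20, stood at 3433, 3923 and 3637 CPM with WT Tconv and at 2967, 3330 and 2301 CPM with HP1α KO Tconv (log2 fold change -0.35, edgeR adjusted p = 0.291, DESeq2 adjusted p = 0.0913). Tax1bp1, which encodes a partner of A20, was at 379 ± 10.4 and 308 ± 10.9 CPM (SD, n = 3, log2 fold change -0.30, adjusted p = 0.209 by edgeR and 0.0149 by DESeq2). Traf6, a ubiquitin ligase used by CD40 and RANK, was at 263 ± 10.9 and 207 ± 21.9 CPM (-0.35, 0.209 and 0.0296), with DESeq2 calls in 6 of 7 fits for Tax1bp1 and 4 of 7 for Traf6. The groups did not overlap for any of these 3 genes. Traf1 and Birc3, which NF-kB induces and which bind TRAF2, overlapped between the groups, with log2 fold changes of -0.01 and -0.09 (edgeR adjusted p = 0.981 and 0.666).

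Of the remaining receptors of the superfamily, 14 of 19 could be tested, with 4 higher and 2 lower at an unadjusted p under 0.05 (6.98% and 7.52% of all genes) and a median of -0.06. Relt was at 20.6 ± 2.46 CPM with WT Tconv and 27.5 ± 1.5 CPM with HP1α KO Tconv (SD, n = 3, log2 fold change 0.41, adjusted p = 0.209 by edgeR and 0.0271 by DESeq2, which called it in 4 of 7 fits). Tnfrsf26 had a log2 fold change of 0.28 (edgeR adjusted p = 0.285). Tnfrsf10b, the mouse TRAIL receptor, and Tnfrsf12a, the TWEAK receptor, had log2 fold changes of -0.40 and -0.44 without overlap (edgeR adjusted p = 0.222 and 0.227). Their DESeq2 adjusted p-values were 0.0542 and 0.0506, and DESeq2 called each in 2 of 7 fits. Ltbr, which lymphocytes are known to lack, was under 1 CPM in all 6 libraries. Over all 73 other pathway genes tested, 12 were higher and 8 lower at an unadjusted p under 0.05 (6.98% and 7.52% of all genes), 13 and 10 did not overlap in the respective direction (11.5% and 11.6%), and DESeq2 called 4 and 3 (1.31% and 3.03%). None passed an adjusted p of 0.05 by edgeR, and their median log2 fold change was -0.03.

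**Figure D5:**
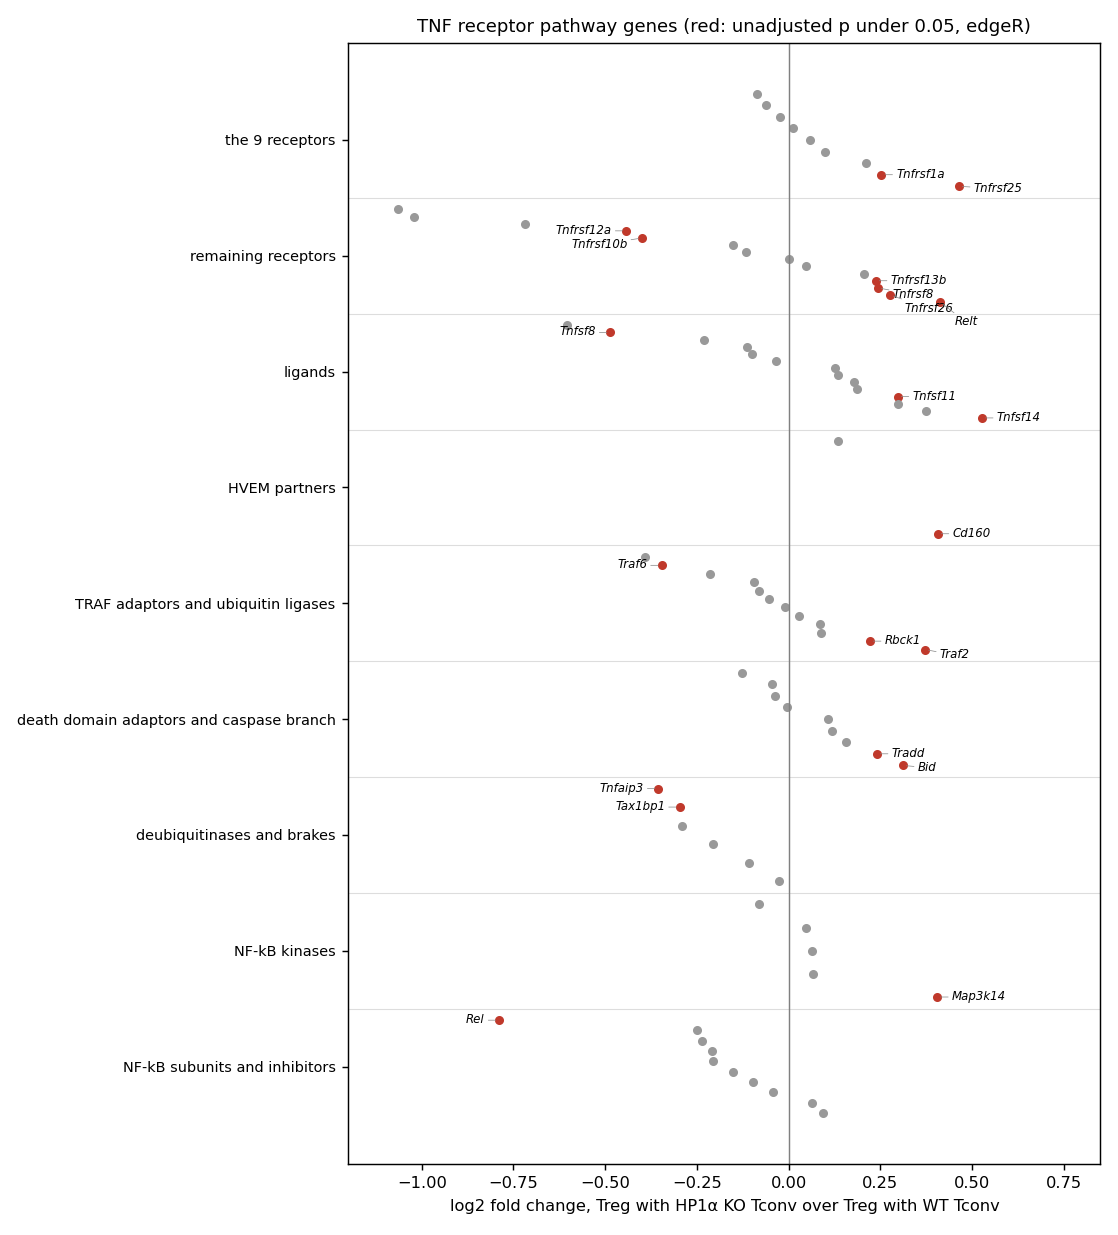
Log2 fold change in Treg, HP1α KO Tconv over WT Tconv, of the 9 receptors and of other genes of the pathway in 8 groups (3 libraries per group of Treg, edgeR), with genes at an unadjusted p under 0.05 in red and named. Tnfsf14 (0.53) and Tnfrsf25 (0.46) are the farthest to the right and named, and Rel (-0.79) is the farthest to the left among named genes.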

How the data were processed

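Total RNA of 6 Treg libraries was sequenced with a stranded kit. The authors aligned the reads with STAR to GRCm39 and estimated counts per gene with Salmon in the nf-core pipeline, with an Ensembl annotation. The deposited values are these estimated counts as whole numbers, not normalized, so they needed no rounding. Reads that fit several genes are split by Salmon's model, so estimates of overlapping genes depend on each other. Whether counting used strand was not given in the sources used here.

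Genes were tested with the quasi-likelihood test of edgeR 4.0.16 (robust, in its earlier form) under R 4.3.3, with TMM factors, filterByExpr (18321 genes kept) and group as the sole term. P-values were Benjamini-Hochberg adjusted over all genes tested. CPM are counts over the TMM-scaled library total, except marker sums, which use the unscaled total, and log2 CPM used a prior count of 2. Standard errors were derived from the F statistic. The single-value exact permutation test was two-sided. Replicate pairs differed by more than sampling noise (chi-square per degree of freedom 21.6 to 177, highest between replicates 2 and 3 with HP1α KO Tconv).

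DESeq2, the tool the study used (version 1.42.0 here, with group as the term), limma-voom (limma version 3.58.1), other normalizations and filters, a replicate block and leaving out each library were alternatives. Exon lengths, loci and start sites were taken from GENCODE vM39, later than the authors' annotation but on the same GRCm39 assembly. The members, gene lists, named genes and alternatives were chosen with earlier results of these data known. Of the other pathway lists, up to 4 genes per list with an unadjusted p under 0.05 were named by smallest p, and Ltbr, Tnfrsf8, Tnf, Ltb, Tnfsf14, Traf1, Birc3, Nfkb2 and Relb in any case. A gene that this rule names is not reported here. Tnfsf15, Tnfsf4, Tnfsf9, Cd70, Fasl, Foxp3, Il2ra, Ikzf2, Ctla4, Cd4, Cd3e, Cd28 and Cd5 were named after their values were seen. For the 3 receptors with the smallest p, the 3 genes most alike were named. The HP1γ experiments of the study were not analysed here.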

Additional observations from a re-analysis of the deposited data

How the results depend on the processing

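With 3 libraries per group, edgeR called 0 of 18321 genes at an adjusted p under 0.05, DESeq2 526, edgeR without a filter 38, and upper quartile factors and the replicate block 1 each. Leaving out 1 library gave 0 to 2 calls by edgeR. DESeq2 gave 328, 279 and 181 calls without replicates 1, 2 and 3 of the group with WT Tconv, and 681, 1413 and 332 without those of the group with HP1α KO Tconv.

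Of the 9 receptors, DESeq2 called 1, edgeR without a filter 1, and leaving out 1 library gave 0 calls by edgeR and 1 by DESeq2 each time, in each case Tnfrsf25. At an unadjusted p under 0.05 the count of receptors was 2, and 1 without replicate 1 or 2 of the group with WT Tconv (range 1 to 2). Without HP1α KO replicate 3 it stayed at 2, with Tnfrsf18 in place of Tnfrsf1a. Of the other pathway genes DESeq2 called 7 and edgeR without a filter 1. Leaving out 1 library gave 0 to 1 by edgeR (Rel, without HP1α KO replicate 1), and by DESeq2 6, 4 and 3 (WT replicates 1, 2 and 3) and 11, 20 and 6 (HP1α KO replicates). With the longest transcript 5 ranks of the level order changed, and leaving out 1 library changed 0 to 2.

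Signs turned for small estimates, and the cause was not tested. Tnfrsf9 was at 0.02 and Traf1 at 0.03 with total counts, Traf1 at 0.01 with upper quartile factors, and Fas at -0.01 under limma-voom and under the replicate block. Leaving out each library in turn, the edgeR estimates ran from -0.08 to 0.19 for Tnfrsf4, -0.16 to 0.13 for Tnfrsf9, -0.19 to 0.04 for Tnfrsf14, -0.21 to 0.15 for Fas, -0.49 to 0.31 for Ltbr, -0.04 to 0.32 for Tnf, -0.11 to 0.13 for Traf1, -0.15 to 0.0011 for Birc3 and -0.26 to 0.09 for Relb. By DESeq2 signs also turned for Tnfrsf4 (-0.08), Tnfrsf9 (0.13), Tnfrsf14 (0.02 and 0.03), Fas (-0.06 and -0.22), Ltbr (0.31), Tnf (-0.04), Traf1 (0.03 and 0.13), Birc3 (0.0022) and Relb (0.02 and 0.09). Of 198 estimates for the 9 receptors under 22 alternatives, 175 kept their direction and side of the threshold, 8 passed it (all Tnfrsf25) and 15 turned sign, and of 572 for named pathway genes 504, 52 and 16. Correlations of deviations from the group mean were -0.042, 0.182 and 0.117 between libraries with the same replicate number. Between libraries with other numbers they ran from -0.218 to 0.121. Deviations within a group of 3 depend on each other, so these values cannot decide whether replicate numbers pair the libraries. The replicate block moved the calls over all genes from 0 to 1.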
